A study of Mus musculus with 16 samples.

Results

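LSD1 and its partners in the CoREST complex were examined as 9 genes, taken by name from the 24421 genes counted in each muscle. They are *Lsd1*, listed as *Kdm1a*, its paralog *Kdm1b*, the scaffold genes *Rcor1*, *Rcor2* and *Rcor3*, the histone deacetylases *Hdac1* and *Hdac2*, and the accessory subunits *Phf21a* and *Hmg20b*. All 9 had enough reads to be tested in Gas and in Sol. RNA was sequenced from the gastrocnemius (Gas), rich in fast fibers, and the soleus (Sol), rich in slow fibers, with 3 WT and 5 LSD1-mKO libraries per muscle, 16 in all. The mice were male C57BL/6 animals, 8 weeks old when treatment began. LSD1-mKO mice carried floxed *Lsd1* alleles (Lsd1 flox/flox) and 1 copy of the transgene ACTA1-CreERT2, and WT mice carried the floxed alleles without the transgene. Every mouse of both genotypes was given 75 mg/kg tamoxifen on each of 5 days and 1 mg/kg dexamethasone (Dex), a synthetic glucocorticoid, on each of 7 days, so no untreated muscle enters any comparison. The human ACTA1 promoter restricts the recombinase to differentiating and differentiated muscle cells, and the other cells of the tissue keep the gene.

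LSD1 is a flavin-dependent demethylase that removes methyl groups from lysine 4 of histone H3. On nucleosomes it works together with a CoREST protein, encoded by an *Rcor* gene, which joins it to the deacetylases HDAC1 and HDAC2. PHF21A (BHC80) reads the unmethylated histone tail and HMG20B (BRAF35) is a DNA-binding subunit. KDM1B (LSD2) is another flavin-dependent demethylase of the same lysine that does not bind the CoREST proteins. The complex is best known for repressing neuronal genes outside neurons through the transcription factor REST.

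The libraries held between 10130415 and 24576377 reads assigned to genes. A level is given in CPM, the reads of a gene scaled to a common library total by TMM within the muscle. The 3 libraries with the highest ribosomal protein level for their group, WT Gas replicate 3, LSD1-mKO Gas replicate 5 and WT Sol replicate 2, had mean levels of 8.53, 7.81 and 7.37 log2 CPM over the ribosomal protein genes, and these are named where they touch a result. Muscle fiber markers were present in every library, where the 5 genes *Ckm*, *Acta1*, *Mylpf*, *Des* and *Ttn* together reached between 52410 and 92336 CPM. The slow fiber markers summed to between 481 and 1438 CPM in the Gas libraries and to 14052 CPM or more in every Sol library. No label gives a batch, and the Gas and Sol libraries carry different series of names, so a difference between muscles and one between these sets of libraries cannot be told apart. In whole muscle, fewer cells of a type and less RNA per cell cannot be told apart either. The labels do not tie the libraries of a group to single mice, and a figure legend of the study counts fewer LSD1-mKO mice than there are LSD1-mKO Sol libraries here. The p-values therefore measure the spread between these libraries, which may be technical.

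A pair of stretches of sequence matters for reading the counts. One is the part of *Kdm1a* that the study amplified by quantitative PCR, shown because the read counts, in contrast, join all exons of the gene and also take reads from any exon left after recombination. In the 19-exon transcript the primers lie in the coding sequence of exons 6 and 7 and bound a product of 109 bases, which spans chr4:136570458-136572244 of GRCm38 with its intron, on the minus strand. The capitals mark the primer sites.
Kdm1a: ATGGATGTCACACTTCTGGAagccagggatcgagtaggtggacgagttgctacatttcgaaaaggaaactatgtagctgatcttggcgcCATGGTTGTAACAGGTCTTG

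The other shows why the *Hdac1* count is uncertain. The processed pseudogene *Gm10093* on chromosome 17 (78491582 to 78493025, plus strand) repeats the *Hdac1* coding sequence with 9 differences in 1444 aligned bases, an identity of 99.4%. Below are coding bases 305 to 379 of *Hdac1* and the matching bases of the copy, 75 bases or the length of a read. The capital marks the 1 base that differs.
Hdac1: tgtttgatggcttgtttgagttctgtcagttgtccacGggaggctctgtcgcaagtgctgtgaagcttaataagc
Gm10093: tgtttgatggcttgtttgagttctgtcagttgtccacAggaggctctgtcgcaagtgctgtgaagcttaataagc
A read from a stretch without such a base maps to both places, and reads that map to several places were left out of the counts. Of the 1964 windows of 75 bases in *Hdac1* transcripts, 52.5% also occur in transcripts of other genes, so its level is an undercount.

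*Kdm1b* and *Rcor3* overlap other genes. The 3′ end of *Kdm1b* overlaps *Dek* on the opposite strand (8.77% of windows), and reads there count for neither gene when strand is not used. *Rcor3* overlaps the antisense gene *Gm26879* (13.3% of windows), which has no row in the count tables, so its reads and those of *Rcor3* cannot be told apart. The other 6 members shared no window with another gene.

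*Kdm1a*, the targeted gene, was the member that fell in LSD1-mKO muscle. Its level in WT Gas was 37.8, 35.5 and 45.2 CPM. In LSD1-mKO Gas it was 12.6, 12.5, 16.6, 14.0 and 11.3 CPM, and every one of these libraries lay below every WT library. The WT Sol libraries had 35.9, 37.7 and 35.3 CPM. The LSD1-mKO Sol libraries had 11.8, 9.60, 12.9, 9.76 and 13.4 CPM, again with no overlap between the genotypes. Against the mean of the WT libraries, single LSD1-mKO libraries kept between 28.5% and 42.0% of the level in Gas and between 26.4% and 36.9% in Sol. Between 154 and 326 *Kdm1a* reads remained in each LSD1-mKO library.

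The fitted log2 fold change of *Kdm1a* was -1.56 in Gas (SE 0.178, edgeR quasi-likelihood adjusted p 0.0177), which leaves 33.9% of the WT level (95% interval 25.8 to 44.6). In Sol it was -1.66 (SE 0.143, edgeR quasi-likelihood adjusted p 0.000574), or 31.7% of WT (95% interval 25.5 to 39.4). *Kdm1a* ranked at place 3 by p-value in each muscle. It was the 1 member called of 9 in Gas, where 0.0307% of all genes were called and 0.0153% called lower, and the 1 member called of 9 in Sol, where the shares were 0.967% and 0.18%. It was also the only member whose genotypes did not overlap, against 7.01% of genes tested in Gas and 11.1% in Sol. The decrease did not differ detectably between the muscles. The difference of the genotype effect, Sol minus Gas, was -0.08 on the log2 scale (95% interval -0.56 to 0.40, edgeR quasi-likelihood adjusted p 0.987). The Gas call rests on the full set of libraries, since the adjusted p rose to between 0.0549 and 0.134 without WT Gas replicate 1 or 2 or without LSD1-mKO Gas replicate 1, 2, 4 or 5, while the level stayed between 32.8% and 35.2% of WT in these fits.

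Cells without the recombinase are part of both muscles, and their markers were detected. The 6 endothelial markers were detected in every library and summed to between 263 and 386 CPM in LSD1-mKO Gas and between 333 and 424 CPM in WT Gas. In Sol they summed to between 413 and 567 CPM in LSD1-mKO and between 516 and 598 CPM in WT. The 6 leukocyte markers ran from 153 to 202 CPM in LSD1-mKO Gas, from 183 to 293 CPM in WT Gas, from 99.2 to 231 CPM in LSD1-mKO Sol and from 111 to 150 CPM in WT Sol. The 5 fibroblast markers ran from 726 to 867 CPM in LSD1-mKO Gas and from 1052 to 1567 CPM in WT Gas, without overlap, and from 513 to 1687 CPM against 812 to 1236 CPM in Sol. None of these 17 genes was called in either muscle. Fitted values lay below 0 for 5 of 6 endothelial markers in Gas and 6 of 6 in Sol. The same held for 4 of 6 leukocyte markers in Gas and 0 of 6 in Sol, and for 5 of 5 fibroblast markers in Gas and 1 of 5 in Sol. The part of these cells in the remaining *Kdm1a* reads was not tested.

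The paralog *Kdm1b* did not pass the test between genotypes. WT Gas averaged 10.6 ± 2.02 CPM (SD, n = 3) and LSD1-mKO Gas 9.96 ± 1.099 CPM (SD, n = 5), and the log2 fold change was -0.10 (95% interval -0.51 to 0.32). WT Sol averaged 18.8 ± 3.81 CPM (SD, n = 3) and LSD1-mKO Sol 18.3 ± 1.90 CPM (SD, n = 5), and the log2 fold change was -0.04 (95% interval -0.39 to 0.31). The upper ends of these intervals correspond to 125% of the WT level in Gas and 124% in Sol.

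**Figure D1:**
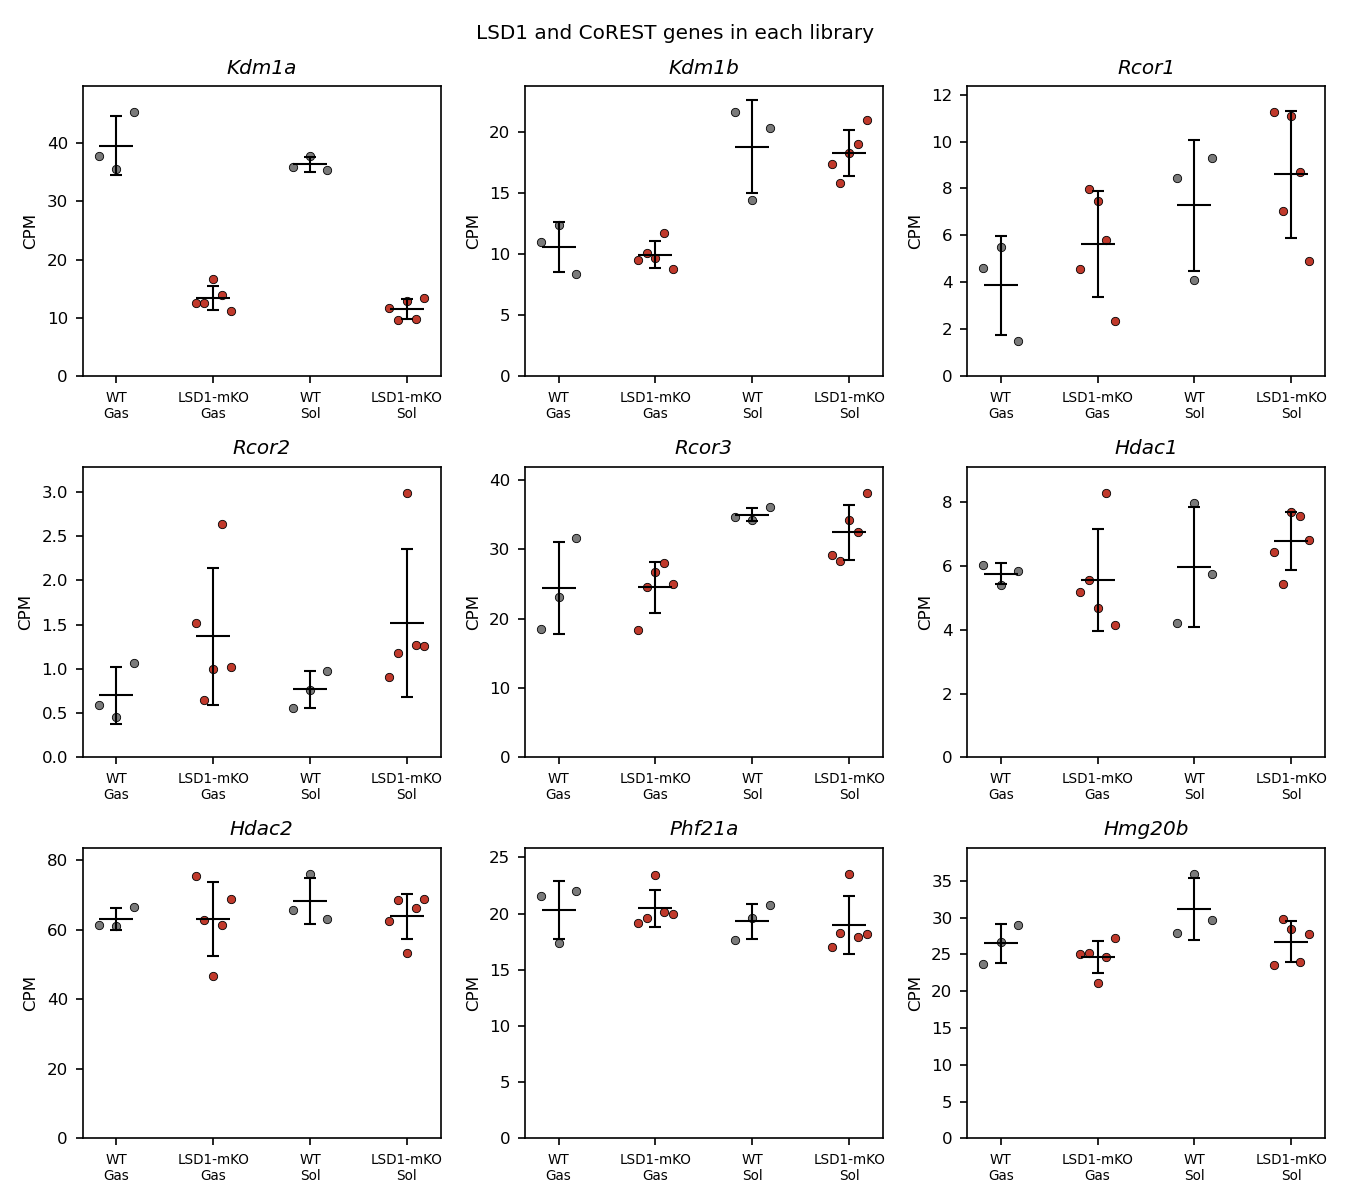
Levels of the 9 genes in CPM (vertical axes, from 0, scaled within each muscle) in each of the 16 libraries. Points are libraries, grey for WT (n = 3) and red for LSD1-mKO (n = 5), and the bars are the mean and SD. The genotypes are apart in both muscles for *Kdm1a*, whose highest LSD1-mKO library had 16.6 CPM and lowest WT library 35.3 CPM, and overlap for the other 8 genes.

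The 3 scaffold genes were expressed at very different levels. *Rcor3* averaged 24.5 ± 6.61 CPM over the WT Gas libraries and 34.99 ± 0.932 CPM over the WT Sol libraries (SD, n = 3 each). *Rcor1*, which encodes CoREST itself, had 3.87 ± 2.11 CPM in WT Gas and 7.28 ± 2.79 CPM in WT Sol (SD, n = 3 each). *Rcor2* had 0.703 ± 0.321 CPM and 0.767 ± 0.209 CPM (SD, n = 3 each), from between 8 and 16 reads per WT library. These values are scaled within each muscle, so the means of a gene in Gas and Sol do not measure a difference between the muscles.

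None of the scaffold genes passed the adjusted test between genotypes. *Rcor3* had a log2 fold change of 0.01 in Gas (95% interval -0.47 to 0.49) and -0.11 in Sol (95% interval -0.39 to 0.18). *Rcor1* had 0.50 in Gas (95% interval -0.50 to 1.498) and 0.24 in Sol (95% interval -0.45 to 0.92), which reaches 282% of the WT level in Gas.

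*Rcor2* had the largest fitted increases of the 9 genes, on few reads. In Gas the 5 LSD1-mKO libraries had 1.52, 0.65, 1.00, 2.64 and 1.02 CPM against 0.59, 0.45 and 1.06 CPM in WT. In Sol they had 0.90, 1.18, 2.98, 1.26 and 1.25 CPM against 0.56, 0.76 and 0.98 CPM in WT. The genotypes overlapped in both muscles, and 1 library each, LSD1-mKO Gas replicate 4 and LSD1-mKO Sol replicate 3, stood well above the others. The log2 fold change was 1.00 in Gas (SE 0.507, edgeR quasi-likelihood p 0.076 and adjusted p 0.555) and 0.98 in Sol (SE 0.446, edgeR quasi-likelihood p 0.0489 and adjusted p 0.319). An unadjusted p under 0.05 was reached by 15.5% of all genes in Sol. In Gas too few WT libraries reached the read filter for *Rcor2*, which was tested there through its LSD1-mKO libraries. The filter thus depended on the group where the gene was higher, and the Gas value is a description only.

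*Rcor1* varied more within groups than between genotypes. Its lowest value in WT Gas was 1.49 CPM in replicate 3, on 14 reads, against 4.60 and 5.52 CPM in the other two. In LSD1-mKO Gas the lowest was 2.37 CPM in replicate 5, against 4.55 to 7.96 CPM, and in WT Sol it was 4.10 CPM in replicate 2, against 8.43 and 9.30 CPM. These are the 3 libraries with the highest ribosomal protein level of their groups. In LSD1-mKO Sol, where that level stayed between 6.72 and 6.87 log2 CPM, *Rcor1* still ran from 4.90 to 11.2 CPM. The part of the ribosomal protein level in these values was not tested beyond a fit that holds it as a covariate. *Rcor1* had no call in any of the 5 comparisons with the covariate or without it. Its log2 fold change between genotypes in Gas ran from 0.00049 to 0.83 over 8 alternative fits.

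The deacetylases differed in level and changed in neither muscle by an amount that passed the test. *Hdac2* averaged 63.1 ± 3.08 CPM over the WT Gas libraries (SD, n = 3) and 63.04 ± 10.6 CPM over those of LSD1-mKO Gas (SD, n = 5), with a log2 fold change of 0.00 (95% interval -0.41 to 0.41). In Sol the averages were 68.3 ± 6.75 CPM for WT (SD, n = 3) and 63.9 ± 6.48 CPM for LSD1-mKO (SD, n = 5), with a log2 fold change of -0.10 (95% interval -0.38 to 0.19). *Hdac1*, an undercount as described above, had 5.77 ± 0.328 CPM and 5.57 ± 1.61 CPM in WT and LSD1-mKO Gas (SD, n = 3 and 5) and 5.98 ± 1.89 CPM and 6.79 ± 0.914 CPM in Sol (SD, n = 3 and 5). Its log2 fold changes were -0.06 in Gas (95% interval -0.60 to 0.48) and 0.19 in Sol (95% interval -0.29 to 0.68). Whether every library lost the same share of its *Hdac1* reads to the copy was not tested.

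The accessory subunits did not pass the test between genotypes. *Phf21a* lay between 17.4 and 23.4 CPM in the Gas libraries and between 17.1 and 23.5 CPM in the Sol libraries. Its log2 fold changes were 0.01 in Gas (95% interval -0.35 to 0.37) and -0.02 in Sol (95% interval -0.34 to 0.29). *Hmg20b* lay between 21.1 and 29.0 CPM in the Gas libraries and between 23.5 and 35.9 CPM in the Sol libraries. Its log2 fold change was -0.10 in Gas (95% interval -0.46 to 0.25) and -0.22 in Sol (95% interval -0.52 to 0.08, edgeR quasi-likelihood p 0.137 and adjusted p 0.486).

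**Figure D2:**
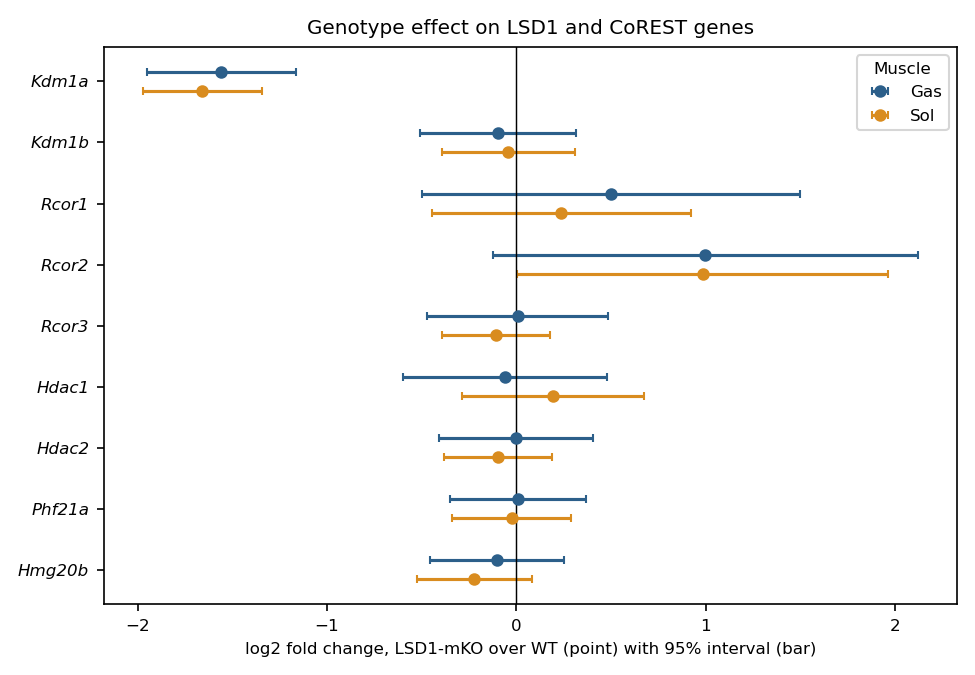
Fitted log2 fold change of LSD1-mKO over WT (horizontal axis) for each of the 9 genes, with the 95% interval as a bar, in Gas (blue) and Sol (orange). *Kdm1a* lies at -1.56 and -1.66, *Rcor2* at 1.00 and 0.98 with the widest intervals of the 9, and only *Kdm1a* passed the adjusted test.

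No member passed the test of a difference in genotype effect between the muscles. With edgeR's quasi-likelihood test 0 of 9 were called and 0 of 9 had an unadjusted p under 0.05, and DESeq2 and limma voom called 0 as well. Of all genes tested, 0% were called and 4.88% had an unadjusted p under 0.05. The fitted differences ran from -0.25 for *Rcor1* to 0.27 for *Hdac1* on the log2 scale. The intervals were wide for the low genes, from -1.46 to 0.97 for *Rcor1* and from -1.36 to 1.35 for *Rcor2*.

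Between the muscles, *Kdm1b* was the only member called in the main comparisons, and its WT call was lost in some alternative fits. The WT libraries of *Kdm1a* did not overlap between the muscles either, and *Kdm1a* was called in LSD1-mKO in some alternative fits, as given below. On a scale common to the 16 libraries *Kdm1b* had 11.6, 13.01 and 8.96 CPM in WT Gas and 20.6, 13.4 and 19.3 CPM in WT Sol. Every WT Sol library lay above every WT Gas library, by a narrow margin for replicate 2. The LSD1-mKO libraries had 9.96, 10.7, 10.3, 12.3 and 9.35 CPM in Gas and 16.5, 15.1, 17.3, 17.8 and 20.2 CPM in Sol, again without overlap, as for 20.9% of all genes (30.3% between the WT muscles).

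The log2 fold change of *Kdm1b*, Sol over Gas, was 0.66 in WT (SE 0.192, edgeR quasi-likelihood adjusted p 0.0265), or 158% of the Gas level (95% interval 119 to 209). In LSD1-mKO it was 0.73 (SE 0.149, edgeR quasi-likelihood adjusted p 0.0018), or 166% (95% interval 133 to 206). It was the 1 member called of 9 in both comparisons, in which 17% and 24.5% of all genes were called, 8.75% and 12.9% higher, so a count of 1 is no more than that background. The WT call was lost when ribosomal protein level was a covariate (0.25, adjusted p 0.39), with no filter on low counts (0.67, adjusted p 0.0522) and without WT Gas replicate 1 or 3 or WT Sol replicate 1 or 3 (0.50 to 0.69, adjusted p 0.0536 to 0.143). The LSD1-mKO call held in every fit tried, with adjusted p of at most 0.0105 and a log2 fold change of 0.50 with the covariate.

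On the common scale *Kdm1a* had between 33.4 and 34.9 CPM in WT Sol and between 37.2 and 48.2 CPM in WT Gas. The WT libraries of the muscles did not overlap, and the LSD1-mKO libraries did (9.13 to 12.9 and 12.0 to 17.7 CPM). The log2 difference was -0.29 in WT (SE 0.178, edgeR quasi-likelihood adjusted p 0.278) and -0.37 in LSD1-mKO (SE 0.141, edgeR quasi-likelihood p 0.017 and adjusted p 0.0629), and neither was called. *Kdm1a* was called in LSD1-mKO under RLE scaling, DESeq2 and limma voom, and without WT Gas replicate 3, LSD1-mKO Gas replicate 5 or LSD1-mKO Sol replicate 3 or 5, with adjusted p from 0.0146 to 0.0499 in these fits. *Rcor3* had a log2 difference of 0.35 in WT (SE 0.200, adjusted p 0.24) and 0.25 in LSD1-mKO (SE 0.154, adjusted p 0.249) by the same test. *Rcor1* had 0.71 in WT (95% interval -0.26 to 1.68, adjusted p 0.306) and 0.47 in LSD1-mKO (95% interval -0.27 to 1.2002, adjusted p 0.354), which turned to -0.62 and -0.28 when ribosomal protein level was a covariate. *Hdac1* had -0.13 and 0.15, *Phf21a* -0.24 and -0.26, *Hmg20b* 0.06 and -0.04, *Hdac2* -0.06 and -0.13, *Rcor2* 0.03 and 0.02, none of which passed it.

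Levels of different genes can be compared only per length, so CPM on the common scale was divided by the kb of exon in the basic GENCODE annotation. In WT Gas the order of the medians was *Hmg20b* (15.7 CPM per kb), *Hdac2* (15.4), *Kdm1a* (13.04), *Rcor3* (5.63), *Phf21a* (3.25), *Hdac1* (3.06), *Kdm1b* (2.33), *Rcor1* (0.857) and *Rcor2* (0.222). The ranges of *Hmg20b*, *Hdac2* and *Kdm1a* overlapped from neighbour to neighbour, as did those of *Phf21a* and *Hdac1* and those of *Rcor1* and *Rcor2*. A gap without overlap separated *Kdm1a* from *Rcor3*, *Rcor3* from *Phf21a*, *Hdac1* from *Kdm1b* and *Kdm1b* from *Rcor1*. With the longer exon models of the comprehensive annotation the order changed, and *Hdac2* (14.5 CPM per kb) came before *Hmg20b* (8.92) and *Kdm1a* (7.72). *Rcor3* (1.79) then came after *Phf21a* (2.67), *Kdm1b* (2.12) and *Hdac1* (1.81), with overlap from neighbour to neighbour, so its place in the order depends on the length used.

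By basic lengths the order in WT Sol was the same down to *Rcor3*, with 15.6, 14.8, 11.1 and 7.61 CPM per kb. *Kdm1b* followed at 3.87 CPM per kb, above *Hdac1* at 2.67 and *Phf21a* at 2.58, with overlapping ranges from neighbour to neighbour, and *Rcor1* and *Rcor2* came last at 1.41 and 0.249. In LSD1-mKO muscle *Kdm1a* stood below *Rcor3* by basic lengths. Its median was 4.31 CPM per kb against 6.14 for *Rcor3* in LSD1-mKO Gas and 3.64 against 7.04 in LSD1-mKO Sol, and *Rcor3* was the higher in 5 of 5 libraries of each. By comprehensive lengths this turned in LSD1-mKO Gas, where *Kdm1a* had 2.55 CPM per kb (lowest library 2.32) and *Rcor3* 1.95 (highest library 2.16). In LSD1-mKO Sol the medians were then 2.16 for *Kdm1a* and 2.24 for *Rcor3*, which was the higher in 4 of 5 libraries. By basic lengths the ranges of *Kdm1a* and *Kdm1b* overlapped in LSD1-mKO Sol, at medians of 3.64 and 3.48 CPM per kb. *Kdm1a* was then the higher in 3 of 5 libraries. By comprehensive lengths *Kdm1b* lay above *Kdm1a* there without overlap. The medians were 3.15 for *Kdm1b* (lowest library 2.74) and 2.16 for *Kdm1a* (highest library 2.49), so this order too depends on the length used. With the length of *Hdac1* reduced to the windows found in no other gene, its median rose to 6.45 CPM per kb in WT Gas and 5.63 in WT Sol, and it then overlapped *Rcor3* in both.

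**Figure D3:**
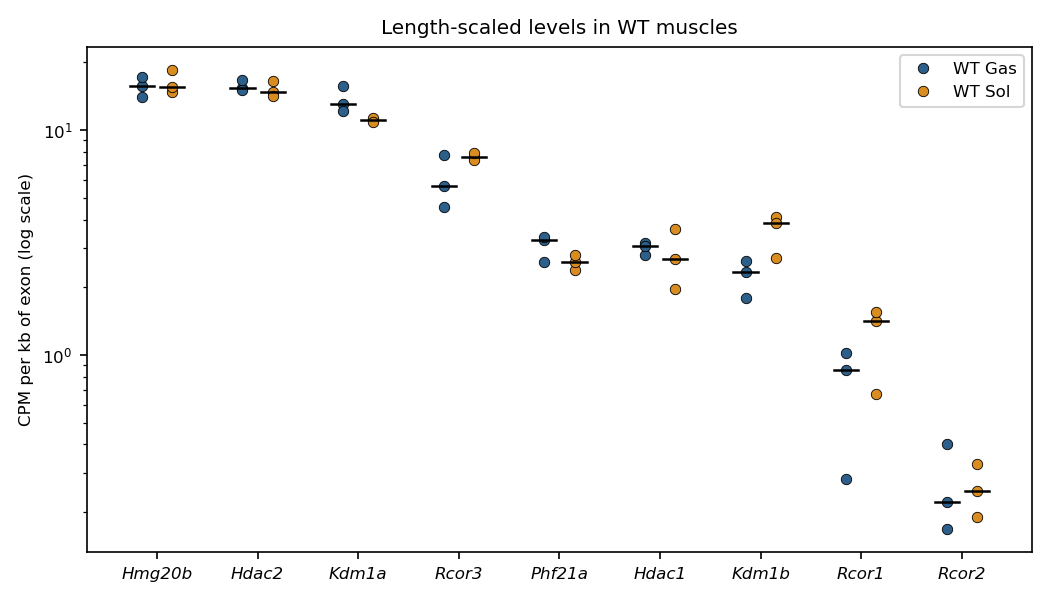
Length-scaled levels of the 9 genes in WT muscle, in CPM per kb of exon on a log scale, with 1 point per library (n = 3 per muscle), blue for Gas and orange for Sol, and a line at the median. Genes are ordered by their median in WT Gas, from *Hmg20b* (15.7) to *Rcor2* (0.222), and the Sol points of *Kdm1b* lie above its Gas points, while those of *Kdm1a* lie below.

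Shares within each set of paralogs put the genes on a scale that does not depend on library size. *Kdm1a* made up 85.6 ± 3.77% of the length-scaled level of *Kdm1a* and *Kdm1b* together in WT Gas (SD, n = 3) and 68.5 ± 3.01% in LSD1-mKO Gas (SD, n = 5). In Sol its share was 75.9 ± 4.35% in WT (SD, n = 3) and 50.4 ± 3.05% in LSD1-mKO (SD, n = 5). The genotypes did not overlap in either muscle, and the lowest share, 45.5%, was in an LSD1-mKO Sol library. This share carries the same *Kdm1a* reads as the genotype test and is a description of them. The shares given here are by basic lengths, and no other length was tried for those of LSD1-mKO. By comprehensive lengths the medians in LSD1-mKO Sol were 2.16 CPM per kb for *Kdm1a* and 3.15 for *Kdm1b*, so *Kdm1a* was then the smaller part.

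*Rcor3* was the main scaffold transcript, with 85.1 ± 6.00% of the *Rcor* level in WT Gas (SD, n = 3), 84.1 ± 4.26% in WT Sol (SD, n = 3), 79.4 ± 4.94% in LSD1-mKO Gas (SD, n = 5) and 78.6 ± 5.63% in LSD1-mKO Sol (SD, n = 5). By basic lengths its share was at least 72.5% in each of the 16 libraries. *Rcor1* made up between 3.30% and 21.9% and *Rcor2* between 2.06% and 11.1%. The share of *Rcor2* averaged 3.72 ± 1.16% in WT Gas and 2.81 ± 0.677% in WT Sol (SD, n = 3 each) against 6.79 ± 3.41% in LSD1-mKO Gas and 5.48 ± 2.41% in LSD1-mKO Sol (SD, n = 5 each). Its genotypes overlapped in Gas and did not in Sol, where the highest WT library had 3.36% and the lowest LSD1-mKO library 3.54%. This narrow gap rests on 10 to 16 *Rcor2* reads per WT Sol library, and the level of *Rcor2* overlapped between the genotypes in Sol. The levels of 11.1% of genes tested in Sol did not overlap. *Hdac1* made up 15.96 ± 0.848% of the deacetylase pair in WT Gas and 15.2 ± 3.13% in WT Sol (SD, n = 3 each), and 28.6% and 27.3% when its length is reduced to the windows found in no other gene. With the longer exon models of the comprehensive annotation the *Rcor3* share was 65.9% in WT Gas and 63.5% in WT Sol. The LSD1-mKO shares were not computed with these models. By them the medians in LSD1-mKO Sol were 2.24 CPM per kb for *Rcor3*, 1.44 for *Rcor1* and 0.376 for *Rcor2*. The lower limit of 72.5% therefore holds for basic lengths only.

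**Figure D4:**
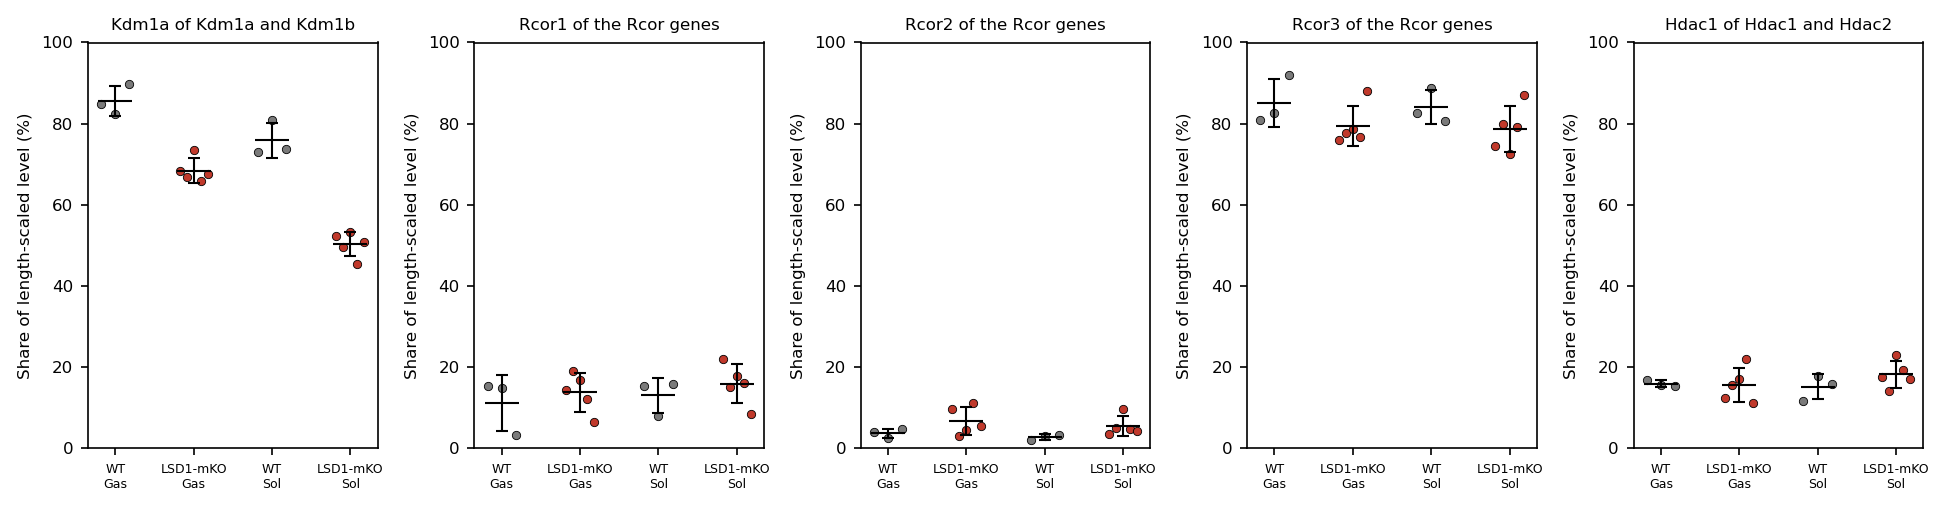
Share of each gene in the summed length-scaled level of its paralogs, in percent (vertical axes from 0 to 100), in each library. Points are libraries, grey for WT (n = 3) and red for LSD1-mKO (n = 5), with the mean and SD as bars. By basic lengths, the mean *Kdm1a* share is 85.6% in WT Gas against 68.5% in LSD1-mKO Gas, and 75.9% against 50.4% in Sol. *Rcor3* holds at least 72.5% in every library by these lengths, and *Hdac1* stays between 11.1% and 23.1%.

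Per kb of exon by basic lengths, *Kdm1a* stood at 1.99 ± 0.293 times the sum of the 3 *Rcor* genes in WT Gas and 1.23 ± 0.133 times in WT Sol (SD, n = 3 each). In LSD1-mKO it stood at 0.618 ± 0.0897 times in Gas and 0.392 ± 0.0391 times in Sol (SD, n = 5 each). By these lengths the demethylase transcript went from above to below the sum of the scaffold transcripts. No other length was tried for the ratios of this paragraph. By comprehensive lengths the medians were 2.55 CPM per kb for *Kdm1a* and 1.95 for *Rcor3* in LSD1-mKO Gas, and 2.16 and 2.24 in LSD1-mKO Sol. The sum of *Hdac1* and *Hdac2* stood at 2.76 ± 0.487 times the *Rcor* sum in WT Gas and 2.55 ± 0.731 times in LSD1-mKO Gas (SD, n = 3 and 5), and at 1.997 ± 0.397 and 1.95 ± 0.290 times in Sol (SD, n = 3 and 5).

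The genes around the complex were counted from fixed lists, and no list gene was called between genotypes in either muscle. Of the 9 other CoREST-associated genes, among them the CtBP corepressors and zinc finger subunits, the median log2 fold change was 0.04 in Gas and 0.16 in Sol, where the medians of all genes tested were 0.01 and -0.01. The one with the smallest p was *Rreb1*, with a log2 fold change of 0.41 in Sol (edgeR quasi-likelihood adjusted p 0.246). Of the 8 transcription factors that bring the complex to DNA, 5 were tested in each muscle, with medians of -0.02 and -0.01. *Snai2*, a zinc finger repressor, had -1.02 in Gas (adjusted p 0.548 by the same test). *Gfi1*, *Gfi1b* and *Insm1* were not tested, with at most 5 reads in a library.

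Among the other complexes that hold HDAC1 and HDAC2, the NuRD genes had medians of 0.08 in both muscles over the 11 tested in Gas and the 12 tested in Sol, and *Mta3* had 0.76 in Gas (edgeR quasi-likelihood adjusted p 0.44). Of the 10 SIN3 genes, 8 had a fitted value below 0 in Gas and 9 in Sol, with medians of -0.20 and -0.11, and *Sap30* had -0.65 in Gas (adjusted p 0.548 by the same test). An unadjusted p under 0.05 by that test was reached by 1 of the 10 in Gas and 0 in Sol. The medians of all genes tested were 0.01 and -0.01. The 6 genes of the NCoR complex, which uses *Hdac3*, had medians of -0.08 and 0.02, and *Tbl1x* had 1.08 in Gas (adjusted p 0.525). Of the 5 genes that supply the flavin cofactor, *Rfk*, the riboflavin kinase, had -0.34 in Sol (adjusted p 0.267), and the list's medians were 0.28 in Gas and 0.01 in Sol.

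The REST target list, neuronal genes that the complex is known to repress outside neurons, held 15 genes, of which 7 were tested in Gas and 10 in Sol. None was called, 5 of 7 and 7 of 10 had fitted values below 0, and the medians were -0.60 and -0.16. *Syp*, a synaptic vesicle protein gene, had -0.60 in Gas (edgeR quasi-likelihood adjusted p 0.555). Since only the genes with enough reads were tested, the counts say nothing of those left out, which had at most 32 reads in a Gas library and 12 in a Sol library.

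Markers of cell types other than those above also gave no call between genotypes. The 3 fast fiber markers summed to between 32091 and 58741 CPM in LSD1-mKO Gas and between 65577 and 71508 CPM in WT Gas, without overlap. In Sol they summed to between 4031 and 11987 CPM in LSD1-mKO against 11293 to 18444 CPM in WT. The markers did not move together in Sol, where 1 had a fitted log2 fold change of 2.60 and 2 lay below 0, the lowest at -1.43. All 3 lay below 0 in Gas. The 4 slow fiber markers summed to between 827 and 1438 CPM in LSD1-mKO Gas and between 481 and 1033 CPM in WT Gas, with overlap. Their fitted values in Gas were above 0 for 4 of 4, with a median log2 fold change of 0.46 against 0.01 over all genes tested, and none was called. In Sol they summed to between 14052 and 19368 CPM in LSD1-mKO and 16113 and 19172 CPM in WT. The 4 satellite cell markers summed to between 16.4 and 27.0 CPM in LSD1-mKO Sol and 28.0 to 34.9 CPM in WT Sol, without overlap, and to between 11.4 and 16.9 CPM against 12.8 to 19.5 CPM in Gas. They did not move together in Sol, where 2 of 4 had fitted values below 0. Their log2 fold changes there ran from -0.88 to 0.44, with a median of -0.02. In Gas 1 of 4 lay below 0. Pericyte, Schwann cell, adipocyte and neutrophil markers overlapped between the genotypes in both muscles. *Ngp*, a neutrophil granule gene, had no read in at least 1 library of every group, and *Pax7* had none in at least 1 WT Gas library, where 3 reads correspond to at most 0.272 CPM before scaling, a limit for counting error only. The part of these cell types in the levels of the 9 genes was not tested.

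The 3 genes whose centred log2 CPM followed *Kdm1a* most closely over the 16 libraries, among 13748 compared, were *Slc30a2*, *Hnmt* and *4930413G21Rik*, with mean absolute differences of 0.339, 0.340 and 0.403. *Slc30a2* encodes a zinc transporter. Its WT and LSD1-mKO means were 100.5 ± 9.40 and 49.0 ± 15.4 CPM for Gas and 81.0 ± 4.36 and 35.5 ± 11.3 CPM for Sol (SD, n = 3 and 5). *Hnmt* encodes histamine N-methyltransferase and had 5.09 ± 1.43 and 2.22 ± 0.685 CPM in Gas and 5.13 ± 1.08 and 1.71 ± 0.698 CPM in Sol, in WT and LSD1-mKO (SD, n = 3 and 5). Since the genes were chosen for this likeness, the values are a description.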

How the data were processed

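RNA was measured in 16 libraries of Gas and Sol muscle. The authors aligned 75 bp single-end reads to mm10 with STAR (version not given in the sources used here) and, per the file headers, counted exon reads with featureCounts 1.5.2 without a strand option. The deposited tables hold raw read counts for 24421 genes. The authors' deposited tables of log2 fold changes, mean log2 CPM and p-values were not used. Groups and replicate numbers come from the labels, and 0 count columns belonged to other samples.

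Counts were filtered with filterByExpr (minimum count 10), TMM-scaled and tested two-sided with edgeR 4.0.16 (quasi-likelihood F-test, R 4.3.3), over all genes, calling those below 0.05 after Benjamini-Hochberg adjustment. Genotypes were compared within each muscle. The difference of genotype effects and the 2 comparisons of muscles used the 16 libraries in 1 fit of 4 groups. Standard errors were derived from the fitted log2 fold change and its F statistic. CPM on a common scale came from the latter fit. Exon lengths, coordinates and sequences came from GENCODE vM21 (GRCm38), which may differ from the authors' annotation, and the primers from the study's primer list. The alternatives were RLE scaling, no filter, the edgeR exact test within a muscle, DESeq2 1.42.0, limma 3.58.1 voom with quality weights, the ribosomal protein level as a covariate, the replicate block, all libraries in 1 fit and each library left out. For shares, reads without length scaling were an alternative. Comprehensive and countable exon lengths were added after seeing the data.

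The 9 genes and the lists of complexes and markers were chosen with earlier results of these data known. All 9 genes are named, *Kdm1a* and genes called between genotypes or not overlapping with every library's value and the others by ranges, and *Kdm1b* and *Rcor2* were also given by library after their values were seen. List genes are named where called, and otherwise at most 2 per list by the smallest p. Same-numbered LSD1-mKO libraries of Gas and Sol deviated together (correlations of deviations from the group means 0.212 to 0.359 over 5 pairs), and 10 of 10 libraries correlated best with their own number, so these numbers pair the samples as a pattern in the data. No label states a shared mouse.

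No replicate pair had counts within sampling noise of each other. On simulated counts with 200 genes changed by 2 on the log2 scale, the test recovered 196 in Gas with 15 false calls (over 13181 genes) and 194 in Sol with 11 (over 13332 genes). The changed genes left out those as low as *Rcor2*. These counts therefore say nothing of low genes or of smaller changes, such as those fitted for the members not called.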

Additional observations from a re-analysis of the deposited data

Results flagged for a closer look

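Dixon's test for a single value far from the others was run on the levels of the 9 genes and 5 shares in both LSD1-mKO groups, 28 sets of 5 libraries in all, and marked 5, where chance marks about 1 in 20. The number is the gap to the nearest library as a share of the whole range, with a critical value of 0.71. *Rcor2* in LSD1-mKO Sol was highest in replicate 3 (2.98 CPM, next 1.26, gap 0.827), and so was the *Rcor2* share of the *Rcor* genes (9.66%, next 5.07%, gap 0.75). *Phf21a* was highest in the same Sol library (23.5 CPM, next 18.3, gap 0.811) and in LSD1-mKO Gas replicate 3 (23.4 CPM, next 20.1, gap 0.783). The *Rcor3* share in LSD1-mKO Gas was highest in replicate 5 (88.1%, next 78.7%, gap 0.774), the library with the lowest *Rcor1* level of that group. Without LSD1-mKO Sol replicate 3, the log2 fold change of *Rcor2* in Sol was 0.58, the lowest of the fits that leave out 1 library.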

How the results depend on the processing

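Leaving out single libraries changed the count of members called in Gas from 1 to 0 in 6 of 8 fits (range 0 to 1), with *Kdm1a* at 31.9% to 36.9% of WT over the 8. The replicate block also gave 0 there, with *Kdm1a* at 35.1% of WT (adjusted p 0.226). In Sol the count was 1 in every fit. Between WT muscles it was 0 with no filter, with the ribosomal protein covariate and with the replicate block, 2 with voom, and 0 to 1 with a library left out. Between LSD1-mKO muscles it was 2 with RLE scaling, DESeq2 and voom, and 1 to 3 with a library left out, the 3 (*Kdm1a*, *Kdm1b* and *Phf21a*) without LSD1-mKO Sol replicate 3. The replicate block left it at 1. The count for the difference between muscles was 0 in every fit. WT and LSD1-mKO numbers within a muscle, and WT numbers across muscles, do not pair the samples (correlations from -0.515 to 0.307), and 3 of 6, 3 of 6 and 0 of 6 libraries correlated best with their own number. Apart from the counts above, the block changed only the calls of *Kdm1a* in Gas and *Kdm1b* in WT muscle.

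Shares moved with length, which was varied for the WT groups only. Without length scaling the *Kdm1a* share was 78.6% in WT Gas and 66.0% in WT Sol and the *Hdac1* share 8.38% and 7.95%. With comprehensive lengths they were 79.6%, 67.3%, 10.6% and 10.1%, and *Rcor3* had 65.9% and 63.5%. With countable lengths *Hdac1* had 28.6% and 27.3%.

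Of 882 values for single genes, 66 changed sign, none of them a called value, and 793 kept sign and side of the threshold. Between genotypes in Gas, *Rcor3* was -0.0038 with RLE scaling, -0.0024 with DESeq2 and -0.059 with the replicate block. *Hdac2* was -0.0084, -0.0075 and -0.056 in these and -0.0032 with 16 libraries in 1 fit, and *Phf21a* was -0.0014 with voom. In Sol, *Rcor1* was -0.11 and *Hdac2* 0.0092 with voom, and *Phf21a* was 0.012 with the replicate block. For the difference between muscles, *Kdm1b* was -0.0077 with voom and *Rcor1* 0.34 with the covariate. Between WT muscles, *Rcor1* was -0.62 and *Hdac2* 0.14 with the covariate, and *Rcor2* -0.0089 with the block. Between LSD1-mKO muscles, *Rcor1* was -0.28 and *Hmg20b* 0.09 with the covariate, and *Rcor2* -0.017 with the block. The cause was not tested.

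With a library left out, signs changed for *Kdm1b* (-0.22 to 0.049), *Rcor3* (-0.16 to 0.24), *Hdac1* (-0.24 to 0.027), *Hdac2* (-0.073 to 0.091) and *Phf21a* (-0.071 to 0.082) in Gas, and for *Kdm1b* (-0.20 to 0.080), *Rcor1* (-0.038 to 0.46) and *Phf21a* (-0.11 to 0.047) in Sol. For the difference they changed for *Kdm1b* (-0.093 to 0.20), *Rcor1* (-0.56 to 0.095), *Rcor2* (-0.43 to 0.30), *Rcor3* (-0.33 to 0.065) and *Phf21a* (-0.13 to 0.064). Between WT muscles they changed for *Rcor2* (-0.20 to 0.35), *Hdac1* (-0.37 to 0.071), *Hdac2* (-0.12 to 0.0038) and *Hmg20b* (-0.034 to 0.13), and between LSD1-mKO muscles for *Rcor2* (-0.40 to 0.33). Depth limits *Rcor2* most, with 8 to 66 reads per library.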
